A study of Mus musculus with 13 samples.

Results

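The genes described here are 10 markers of mural cells, the smooth muscle cells and pericytes that wrap blood vessels. They were matched by mouse symbol among 53379 genes of a bulk RNA-seq count table of thymic stroma, and all 10 were among the 19984 genes that passed the filter on low counts. The table holds 13 libraries of CD45- thymic stroma cells, polyA RNA, from wild-type C57BL/6 mice aged 2 months: 4 from untreated mice at steady state and, after a sublethal dose of total body irradiation (SL-TBI, here TBI), 3 each from day 1, day 4 and day 7. All 4 groups share strain, genotype, age and sorting gate, and the steady-state columns are named for PBS on day 1, 4 or 7, so each steady-state library is called here by that name. The gate is defined by the lack of CD45 and not by a mural marker, so mural cells are 1 component of mixed tissue RNA: in these bulk data fewer mural cells and less RNA per mural cell cannot be told apart. The study's methods call the libraries biological replicates, but neither they nor the labels say whether each came from a separate mouse or from pooled mice, so the p-values measure only the spread between these libraries.

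Arterial smooth muscle cells contract through a filament system of smooth muscle actin, smooth muscle myosin and the actin-binding proteins transgelin and calponin. Pericytes sit on capillaries, are recruited by platelet-derived growth factor from the endothelium and, like smooth muscle, depend on Notch signals between vessel wall cells. In the thymus, vessels carry progenitors in and mature T cells out, and pericytes surround the perivascular space through which this traffic passes. The markers are described in 3 groups by role: the contractile genes Acta2, Myh11, Tagln and Cnn1, the surface proteins Notch3, Cspg4 and Mcam, and the pericyte signalling and channel genes Rgs5, Kcnj8 and Abcc9.

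Libraries held 15721866 to 52056896 counted reads, and no member fell below 57 reads in any library. Endothelial markers (Pecam1, Cdh5 and 5 others) summed to between 900.3 and 1483 CPM, the count scaled by the TMM-normalized library size, in every library, so vessels were sampled throughout. Their sums were 944 to 1326 CPM at steady state, 900 to 1169 at day 1, 1153 to 1483 at day 4 and 984 to 1353 at day 7. All 7 had positive log2 fold changes for day 4 against day 1 (median 0.40, all genes -0.10). Of these 0 were called by the test described below. The endothelial sum hides opposite moves of its markers. At day 1 against steady state 4 had positive and 3 negative log2 fold changes, with 0 called. The mean of Kdr went from 334 to 147 CPM and that of Cldn5 from 97.4 to 36.5 CPM. The mean of Pecam1 went from 265 to 328 CPM and that of Esam from 245 to 282 CPM. Other cell types moved with the conditions as well. The 9 thymocyte markers summed to 202 to 681 CPM at steady state, 103 to 132 at day 1, 18.1 to 27.1 at day 4 and 178 to 4115 at day 7. The 9 markers of thymic epithelial cells (TECs), among them Epcam, Psmb11 and Aire, summed to 1031 to 3682 CPM at steady state, 1421 to 2821 at day 1, 2914 to 4688 at day 4 and 795 to 1495 at day 7, so day 4 and day 7 did not overlap. The sum does not describe each marker. From steady state to day 4 the mean of Krt5 went from 298 to 1102 CPM. The mean of Epcam went from 83.6 to 49.9 CPM and that of Aire from 21.3 to 3.92 CPM. The 5 erythroid markers summed to 19612 to 33937 CPM at steady state and to 9.42 to 12.9 at day 4. The steady-state library PBS day 4 replicate 2 had the highest summed fibroblast markers, 83397 CPM against 12822 to 43978 in the other 12. The part of these shifts in the results below was not tested beyond the left-out libraries and a thymocyte score, the mean log2(CPM + 0.5) of the 9 markers, entered as a covariate. Summed thymocyte markers did not overlap between conditions, except between day 7 and steady state. Outside that comparison score and condition therefore cannot be told apart, and a call lost with the score does not show its cause.

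At steady state, levels were compared between genes only per length of exon, as CPM per kilobase. Acta2, which encodes smooth muscle alpha-actin, had the highest level, 193 ± 147 CPM per kilobase (SD, n = 4), at percentile 99.1 of the tested genes. Rgs5, a regulator of G-protein signalling in pericytes, followed at 40.4 CPM per kilobase. Myh11, the smooth muscle myosin heavy chain, stood at 23.5, Abcc9 at 20.4, Kcnj8 at 16.4 and Mcam at 14.1 CPM per kilobase. Notch3 at 5.81, Cnn1 at 4.59, Tagln at 4.48 and Cspg4 at 2.27 CPM per kilobase were lowest. Along this order only 2 pairs of neighbours had library ranges that did not overlap, Acta2 and Rgs5, and Mcam and Notch3. The level of Tagln in this order depends on how reads were counted: 67.86% of its 1988 exonic bases overlap genes on the other strand (1241 bases of Gm48529 and 108 of Pcsk7), and reads that overlap more than 1 gene are not counted under the stated default settings. Over its 639 unshared bases alone its mean count came to 13.9 CPM per kilobase. Shared bases made up 6.07% of Notch3, 1.89% of Abcc9 and 0.51% of Mcam, and the other 6 genes had none.

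**Figure D1:**
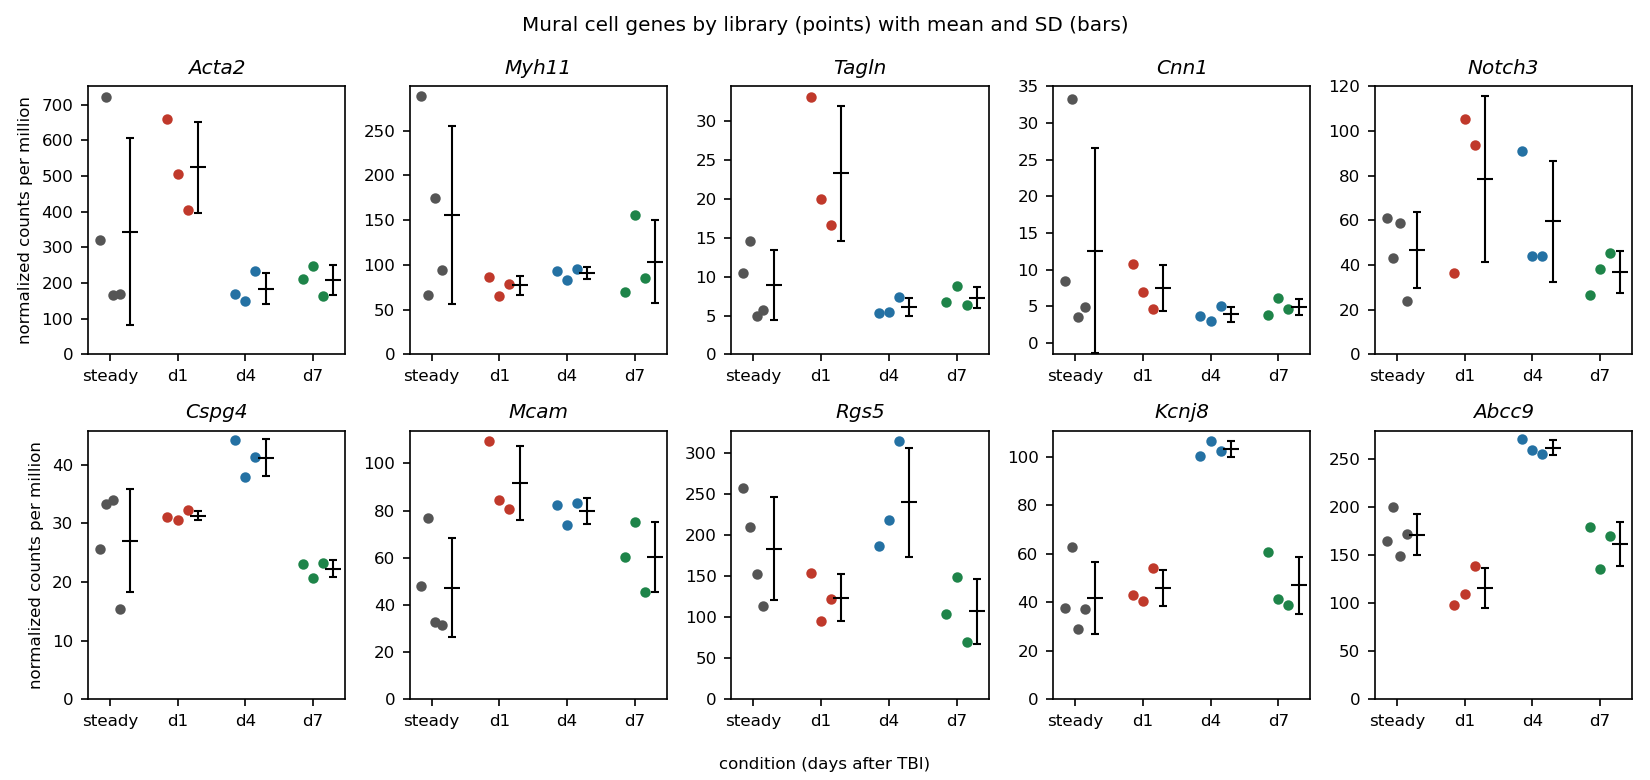
Each panel plots 1 mural cell gene, with CPM on the y axis and the 4 conditions on the x axis. Points are libraries and bars are the mean with SD. Kcnj8 and Abcc9 have all 3 day 4 libraries above every other library, Acta2 and Tagln are high on day 1, and 1 steady-state library stands far above the others in Cnn1.

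The comparisons ask whether the mural genes differed between steady state and each day after TBI, and between the days. Calls rest on the quasi-likelihood test of edgeR, with a gene called at an adjusted p (Benjamini-Hochberg over all 19984 genes) of 0.05 or less. Against steady state, 0 of 10 mural genes were called at day 1, where 2.35% of all tested genes were called, 0 of 10 at day 4, where 0.29% were, and 0 of 10 at day 7, where 0.005% were. At an unadjusted p under 0.05 the counts were 4, 5 and 1, and DESeq2 called 2, 2 and 0. No share over all genes is given for unadjusted or DESeq2 counts, here or below. These counts therefore cannot be set against the percentages, which are edgeR calls at the adjusted threshold. Between the days after TBI, 2 of 10 were called for day 4 against day 1 (1.43% of all genes), 1 of 10 for day 7 against day 1 (8.13%) and 1 of 10 for day 7 against day 4 (3.9%). These were Tagln and Abcc9, Tagln again, and Kcnj8.

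Genes whose libraries did not overlap between 2 conditions gave a second count. At day 1 against steady state 3 of 10 mural genes did not overlap (15.8% of all genes), at day 4 against steady state 3 of 10 (14.7%), and at day 7 against steady state 0 of 10 (7.49%). For day 4 against day 1 it was 6 of 10 (26.3%), for day 7 against day 1 4 of 10 (27.5%), and for day 7 against day 4 4 of 10 (26.2%). The median log2 fold change of the 10 genes was 0.17 at day 1, 0.37 at day 4 and -0.32 at day 7 against steady state, beside -0.10, -0.13 and 0.00 for all tested genes. It was 0.02 for day 4 against day 1, -0.55 for day 7 against day 1 and -0.55 for day 7 against day 4, beside -0.10, 0.05 and 0.11 for all genes. Left out as a pair, the PBS day 1 and PBS day 4 libraries moved the median to 0.64 for day 1 and to 0.10 for day 7 against steady state.

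**Figure D2:**
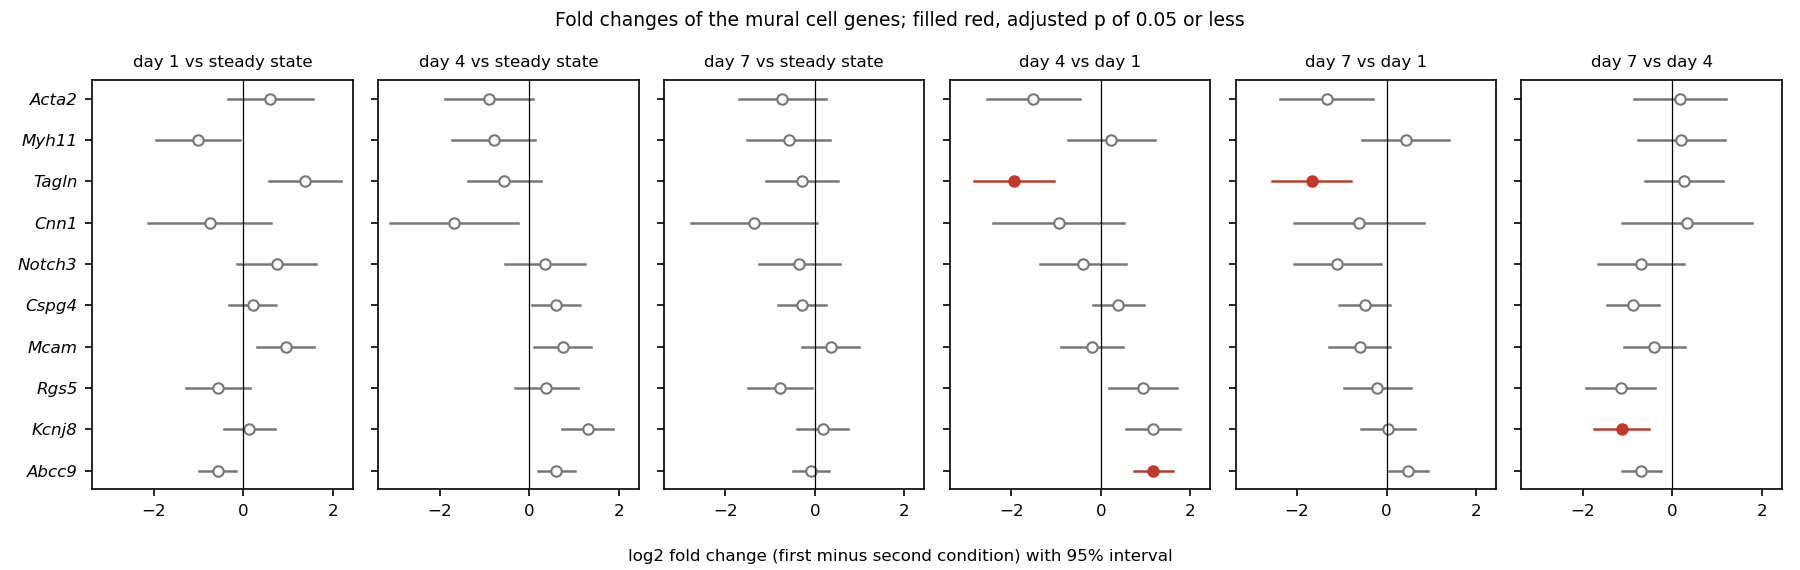
Log2 fold changes (x axis, first minus second condition) of the 10 mural cell genes (y axis) in 6 comparisons, with 95% intervals. The filled red points are the 4 values with an adjusted p of 0.05 or less: Tagln and Abcc9 for day 4 against day 1, Tagln for day 7 against day 1 and Kcnj8 for day 7 against day 4. Acta2 and Tagln lie on the opposite side of 0 from Rgs5, Kcnj8 and Abcc9 in day 4 against day 1.

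Among the contractile genes, Acta2 lies on chromosome 19 (34241090 to 34255336, minus strand, GRCm38) and encodes the actin of the smooth muscle filament. Serum response factor, with its partner myocardin, binds the CArG box, an element of many smooth muscle promoters, and Notch target genes carry TGGGAA, the core to which the Notch partner Rbpj binds. The 250 bases before the RefSeq start of Acta2 are shown because this gene and Tagln had the closest pattern among the members. Capitals mark 2 CArG boxes with 1 core base off, first bases 84 and 34 bases before the start, TGGGAA, which overlaps the second of them, and GGAATG, the core bound by TEAD factors.
Acta2 promoter, GRCm38.p6, chr19:34255374-34255623, minus strand: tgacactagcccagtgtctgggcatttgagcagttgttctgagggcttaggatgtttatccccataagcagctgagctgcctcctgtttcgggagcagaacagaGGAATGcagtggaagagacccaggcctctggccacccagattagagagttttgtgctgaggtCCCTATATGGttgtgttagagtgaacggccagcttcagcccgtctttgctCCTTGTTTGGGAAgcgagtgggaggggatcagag
Both strands were searched. A CArG box with exactly 1 core base off was found in 7.24% of 32851 promoter windows of this length, an exact CArG box in 1.47%, TGGGAA in 21.59% and GGAATG in 12.64%. Among the 8 members with a RefSeq promoter entry, Acta2 alone had the near CArG box and none had the exact one. Myh11 and Tagln had no entry.

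Acta2 measured 321, 721, 167 and 169 CPM in the steady-state libraries PBS day 1 replicate 2, PBS day 4 replicate 2, PBS day 7 replicate 1 and PBS day 7 replicate 2, 661, 505 and 406 at day 1, 170.3, 149.8 and 234 at day 4, and 212, 248 and 163 at day 7. Day 1 lay above day 4 and day 7 without overlap, while the PBS day 4 library was the highest of all 13. Steady state overlapped each day, and day 1 only through that library. Acta2 at day 1 was 2.84 times its day 4 level (log2 fold change day 4 minus day 1 -1.50 ± 0.48, SE, adjusted p = 0.177) and 2.52 times its day 7 level (-1.34 ± 0.48, adjusted p = 0.108), neither of which passed. Without PBS day 4 replicate 2 all 3 day 1 comparisons of Acta2 passed: 1.26 against steady state (adjusted p = 0.0462), -1.51 for day 4 against day 1 (adjusted p = 0.0348) and -1.34 for day 7 against day 1 (adjusted p = 0.0212). With all libraries its log2 fold change at day 1 against steady state was 0.61 ± 0.44 (adjusted p = 0.51).

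Tagln, on chromosome 9 (45929619 to 45936058, minus strand), encodes transgelin, an actin-binding protein of contracting smooth muscle. Its values at steady state were 10.5, 14.5, 4.88 and 5.76 CPM in the same library order. At day 1 they were 33.1, 20.01 and 16.7, at day 4 5.36, 5.50 and 7.37, and at day 7 6.69, 8.81 and 6.40 CPM. All 3 day 1 libraries lay above the other 10. Tagln fell from day 1 to day 4, by 1.93 on the log2 scale (SE 0.41, 3.82-fold, adjusted p = 0.0356), and from day 1 to day 7, by 1.67 (SE 0.41, 3.18-fold, adjusted p = 0.0265). Against steady state, day 1 was 1.38 ± 0.37 higher on the log2 scale (adjusted p = 0.076), day 4 differed by -0.55 (adjusted p = 0.517) and day 7 by -0.29 (adjusted p = 0.879).

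The calls on Tagln were lost in several fits that left out 1 library. Over the 13 left-out libraries the log2 fold change stayed at -2.12 to -1.59 for day 4 against day 1. For day 7 against day 1 it stayed at -1.86 to -1.33. The fall to day 4 passed in 13 of 23 alternatives. It missed the threshold without day 1 replicate 1 (adjusted p = 0.109), day 1 replicate 2 (0.0784), day 4 replicate 1 (0.137), replicate 2 (0.195) or replicate 3 (0.115), and day 7 replicate 2 (0.0521) or replicate 3 (0.0658), with log2 fold changes of -2.10 to -1.59. The fall to day 7 passed in 15 of 23, and missed it without day 1 replicate 1 (0.101) or replicate 2 (0.0532) and day 7 replicate 1 (0.0579), replicate 2 (0.0651) or replicate 3 (0.091). After adding the thymocyte score both falls missed it, at -1.87 (adjusted p = 0.116) and -1.76 (adjusted p = 0.195), but score and day cannot be told apart here. Without PBS day 4 replicate 2 the higher level at day 1 against steady state passed (1.72, adjusted p = 0.0213). Pcsk7, whose exons overlap those of Tagln, had log2 fold changes of 0.68 ± 0.21 at day 1 against steady state (adjusted p = 0.117) and -0.67 ± 0.22 for day 4 against day 1 (adjusted p = 0.19), and Gm48529 had -0.51 ± 0.48 for day 4 against day 1 (adjusted p = 0.682). Whether reads of these genes entered the Tagln counts was not tested.

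Myh11, on chromosome 16 (14194527 to 14291408, minus strand), encodes the myosin motor particular to smooth muscle. It measured 288, 65.9, 175 and 94.4 CPM at steady state, 86.6, 65.3 and 79.2 at day 1, 93.6, 82.9 and 95.02 at day 4, and 69.8, 156 and 84.8 at day 7. The highest library was PBS day 1 replicate 2, and the library that led Acta2 and Cnn1 was among the lowest for Myh11. Its largest difference was -1.02 ± 0.43 at day 1 against steady state (adjusted p = 0.252), with overlapping libraries.

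Cnn1, on chromosome 9 (22099216 to 22109630, plus strand), encodes calponin, which restrains the actin-activated motor. It measured 8.42, 33.3, 3.64 and 4.94 CPM at steady state, 10.8, 6.97 and 4.71 at day 1, 3.68, 2.99 and 5.07 at day 4, and 3.90, 6.13 and 4.72 at day 7. The steady-state mean of 12.57 ± 13.95 CPM (SD, n = 4) rested on PBS day 4 replicate 2. The log2 fold change at day 4 against steady state was -1.68 ± 0.66 (adjusted p = 0.324). At day 1 against steady state it was -0.75 with all libraries and 0.40 without PBS day 4 replicate 2 (adjusted p = 0.582 and 0.601), a change of sign.

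Among the surface proteins, Notch3, on chromosome 17 (32120820 to 32166880, minus strand), is the Notch receptor of smooth muscle and pericytes. It measured 60.8, 43.0, 59.0 and 24.0 CPM at steady state, 36.4, 105 and 93.9 at day 1, 90.9, 44.1 and 43.8 at day 4, and 26.6, 38.3 and 45.2 at day 7. Its largest difference, day 7 against day 1, was -1.10 ± 0.45 on the log2 scale (adjusted p = 0.152), and the groups overlapped in all 6 comparisons.

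Cspg4, on chromosome 9 (56865033 to 56899870, plus strand), encodes the NG2 proteoglycan of the pericyte surface. It measured 25.6, 33.3, 34.1 and 15.4 CPM at steady state, 31.1, 30.6 and 32.2 at day 1, 44.2, 37.9 and 41.4 at day 4, and 23.1, 20.7 and 23.2 at day 7. Day 4 was above every other library, and day 7 was below both earlier days. None of these differences passed: day 4 against steady state was 0.60 ± 0.24 (adjusted p = 0.341) and day 7 against day 4 -0.88 ± 0.26 (adjusted p = 0.0851), which passed without PBS day 7 replicate 2 (adjusted p = 0.0342).

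Mcam, on chromosome 9 (44134469 to 44142727, plus strand), encodes CD146, an adhesion molecule shared by mural and endothelial cells. It measured 48.1, 76.7, 33.0 and 31.6 CPM at steady state, 109.6, 84.5 and 80.8 at day 1, 82.5, 73.7 and 83.4 at day 4, and 60.2, 75.1 and 45.7 at day 7. All day 1 libraries lay above all steady-state ones. The log2 fold change at day 1 was 0.95 ± 0.29 (adjusted p = 0.123) and passed without PBS day 4 replicate 2 (1.29, adjusted p = 0.0145), the steady-state library in which Mcam was highest. At day 4 it was 0.75 ± 0.29 against steady state (adjusted p = 0.322).

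Kcnj8 and Abcc9 encode the 2 subunits of the vascular ATP-sensitive potassium channel: Kcnj8 the pore (Kir6.1) and Abcc9 the sulfonylurea receptor (SUR2) that regulates it. The genes are neighbours on the minus strand of chromosome 6, Kcnj8 from 142564837 to 142571614 and Abcc9 from 142587862 to 142702315, separated by 16.2 kb with no gene between. Their promoter windows are shown because the pair had similar values across the libraries. Capitals in Abcc9 mark TGGGAA and GGAATG, which overlap there, with first bases 221 and 219 bases before the start. Kcnj8 had no match to the 4 searched patterns in this window.
Kcnj8 promoter, GRCm38.p6, chr6:142571615-142571864, minus strand: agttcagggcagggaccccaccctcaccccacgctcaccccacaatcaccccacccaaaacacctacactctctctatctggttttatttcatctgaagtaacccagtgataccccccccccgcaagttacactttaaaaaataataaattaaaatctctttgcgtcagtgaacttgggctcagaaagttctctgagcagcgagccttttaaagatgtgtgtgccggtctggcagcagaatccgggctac
Abcc9 promoter, GRCm38.p6, chr6:142702275-142702524, minus strand: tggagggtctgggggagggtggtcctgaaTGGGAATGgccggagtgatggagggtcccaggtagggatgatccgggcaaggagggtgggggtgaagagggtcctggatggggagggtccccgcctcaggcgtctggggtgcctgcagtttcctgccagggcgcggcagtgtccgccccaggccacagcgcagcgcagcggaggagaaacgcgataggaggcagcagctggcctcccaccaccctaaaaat
The windows come from RefSeq and differed in base composition, with 49.2% G and C for Kcnj8 and 66.8% for Abcc9.

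Kcnj8 measured 37.7, 63.0, 28.9 and 37.3 CPM at steady state, 42.9, 40.6 and 54.2 at day 1, 100.5, 107 and 102 at day 4, and 60.7, 41.3 and 39.0 at day 7. The 3 day 4 libraries stood above the other 10, whose highest was the PBS day 4 library. Kcnj8 fell from day 4 to day 7 by 1.13 on the log2 scale (SE 0.28, 2.20-fold, adjusted p = 0.0434), with all 3 day 7 libraries below all day 4 ones. Day 4 was 2.47 times steady state (log2 fold change 1.31 ± 0.26, adjusted p = 0.0615) and 2.25 times day 1 (1.17 ± 0.28, adjusted p = 0.0682), both just short of the threshold. Day 1 and day 7 differed from steady state by 0.14 and 0.17, with 95% intervals of -0.43 to 0.70 and -0.39 to 0.73.

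The fall of Kcnj8 to day 7 passed in 12 of 23 alternatives, with log2 fold changes of -1.36 to -1.10 over the 13 left-out libraries. It missed the threshold without day 1 replicate 2 (adjusted p = 0.0603) or replicate 3 (0.0608), day 4 replicate 1 (0.0655), replicate 2 (0.153) or replicate 3 (0.139), day 7 replicate 2 (0.161) or replicate 3 (0.16), and PBS day 7 replicate 2 (0.0567). With the thymocyte score as a covariate it was -0.08 (adjusted p = 0.958), and thymocyte markers were 18.1 to 27.1 CPM at day 4 and 178 to 4115 at day 7, so score and day cannot be told apart here. TEC markers summed to 2914 to 4688 CPM at day 4 and 795 to 1495 at day 7, and their part was not tested. The higher level at day 4 against steady state passed in 7 of 22 alternatives, among them those without PBS day 4 replicate 2 (1.57, adjusted p = 0.00997), day 7 replicate 1 (adjusted p = 0.0247) or day 7 replicate 2 (adjusted p = 0.0482). Against day 1 it passed without PBS day 4 replicate 2 (adjusted p = 0.0214).

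Abcc9 measured 164, 199.6, 149 and 172 CPM at steady state, 98.5, 109 and 139 at day 1, 270.2, 259.7 and 255 at day 4, and 179, 135 and 170.2 at day 7. Day 1 lay below steady state and day 4 above all other libraries, with no overlap. Abcc9 rose from day 1 to day 4 by 1.18 on the log2 scale (SE 0.20, 2.26-fold, adjusted p = 0.0109), with all day 4 libraries above all day 1 ones, and the call held in 17 of 23 alternatives. Of the left-out libraries, it was lost without day 1 replicate 2 (adjusted p = 0.062), day 4 replicate 1 (0.0546), replicate 2 (0.0655) or replicate 3 (0.0606), and with the thymocyte score (0.94, adjusted p = 0.0885). Score and day cannot be told apart in this comparison either. Against steady state Abcc9 differed by -0.57 ± 0.19 at day 1 (adjusted p = 0.155), 0.61 ± 0.19 at day 4 (adjusted p = 0.22) and -0.08 ± 0.19 at day 7 (adjusted p = 0.954). From day 4 to day 7 the change was -0.70 ± 0.20 (adjusted p = 0.0769).

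Rgs5, on chromosome 1 (169655501 to 169695813, plus strand), damps G-protein signals and is among the best known pericyte transcripts. It measured 258, 211, 153 and 114 CPM at steady state, 154, 95.9 and 123 at day 1, 187, 219 and 315 at day 4, and 104, 149 and 69.5 at day 7. Day 4 was above day 1 and day 7 without overlap, and steady state overlapped every day. Neither difference passed: day 4 against day 1 was 0.95 ± 0.35 (adjusted p = 0.244) and day 7 against day 4 -1.16 ± 0.35 (adjusted p = 0.0892), which passed without PBS day 1 replicate 2 (-1.27, adjusted p = 0.0471).

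The members were also set against the summed endothelial markers of the same library. This ratio is a description only, since the endothelial markers did not move together at day 1. The cell source of each member was not tested, and endothelial cells carry Mcam too. Kcnj8 came to 2.18 to 6.67% at steady state, 3.67 to 5.39% at day 1, 6.90 to 9.25% at day 4 and 3.05 to 6.17% at day 7. On this scale too the 3 day 4 libraries of Kcnj8 were the highest, though by a small margin (6.90% against 6.67% in a steady-state library). Cspg4 came to 2.79 to 3.29% at day 4, 2.66 to 3.40% at day 1 and 1.42 to 3.53% at steady state. Mcam came to 8.04 to 9.38% at day 1 and 2.49 to 8.12% at steady state. Cspg4 at day 4 and Mcam at day 1 thus no longer stood apart from steady state. Tagln came to 1.66 to 2.83% at day 1 and to 0.369 to 1.54% in the other 10 libraries. Abcc9 came to 17.2 to 22.5% at day 4 and 11.3 to 21.1% at steady state, so these 2 groups overlapped on this scale. Acta2 came to 40.4 to 56.6% at day 1 and 12.6 to 76.3% at steady state.

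**Figure D3:**
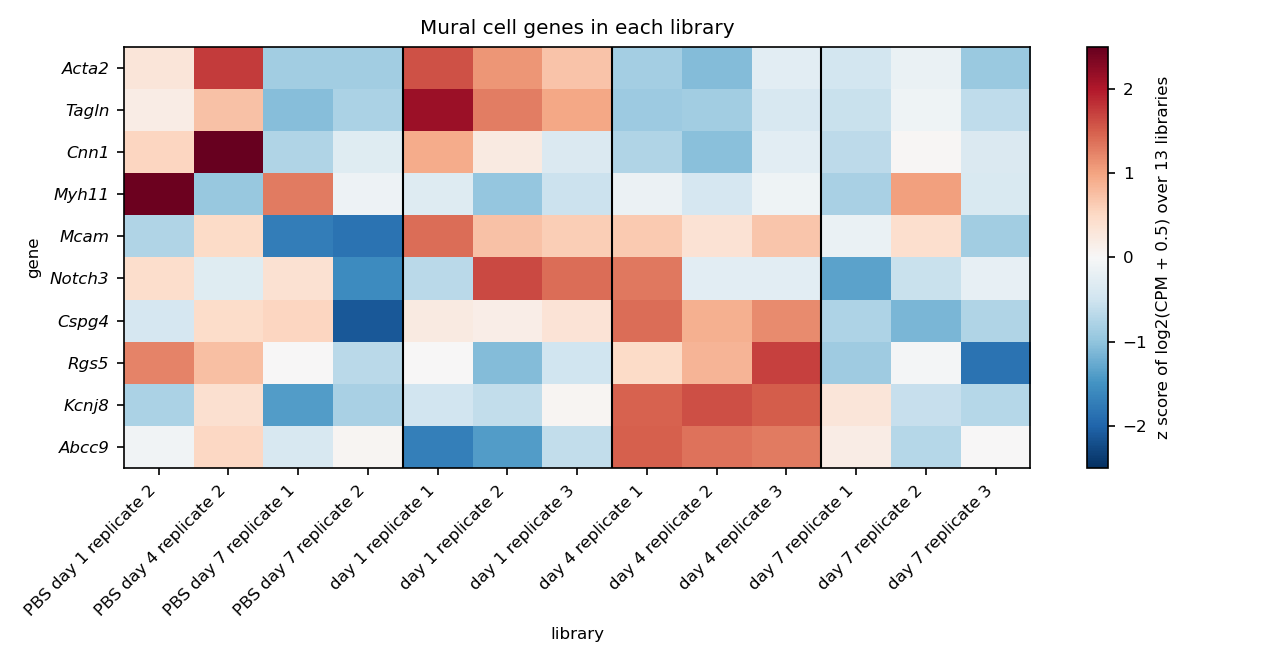
Standardized levels (z score of log2(CPM + 0.5) over 13 libraries) of the 10 mural cell genes (rows) in each library (columns, black lines between conditions). Red is above and blue below the gene's own mean: Acta2, Tagln and Cnn1 are red in PBS day 4 replicate 2 and day 1 replicate 1, and Cspg4, Rgs5, Kcnj8 and Abcc9 are red in all 3 day 4 libraries.

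The members did not vary as 1 group. Over the 13 libraries the 45 pairs had a median Pearson correlation of 0.09 on log2(CPM + 0.5), from -0.70 to 0.93. Acta2 and Tagln had 0.93, Acta2 and Cnn1 0.82, and Kcnj8 and Abcc9 0.77. Acta2 and Cnn1 were both highest in PBS day 4 replicate 2, and correlations without that library are not given. Myh11 had -0.23 with Acta2 and -0.24 with Tagln, although all 3 are contractile genes. Abcc9 had -0.70 with Tagln and -0.55 with Acta2. These correlations include the differences between conditions, and the points share depth and cell mixture within a library.

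Among the 11447 genes averaging at least 5 CPM, the non-member closest to Acta2 was Tpm2, a tropomyosin of smooth muscle (r = 0.94), followed by Spp1 (0.89) and Csrp1 (0.85), and Tagln was closest to Msn (0.96), then Tpm2 (0.93) and Arfgap1 (0.91). Cnn1 was closest to its paralog Cnn2 (0.88), to Actg2, the enteric smooth muscle actin (0.87), and to Htr2a (0.84). Cnn1 and Actg2 were both far highest in PBS day 4 replicate 2, at 33.3 and 113 CPM, so their correlation leans on that library. Myh11 was closest to Ushbp1 (0.94), Traf1 (0.93) and Itga1 (0.92). For the surface proteins, Notch3 was closest to Lama5, Cmip and Itgb4 (0.88 to 0.89), Cspg4 to Slc2a4, Tmem45b and 1200007C13Rik (0.83 to 0.85), and Mcam to Necap2, Polk and Hspb6 (0.93 to 0.94). Rgs5 was closest to Depp1, Adgrl4 and Mthfsl (0.91 to 0.92), and Abcc9 to Pltp (0.97), Ctsl (0.94) and Galm (0.93). Among the genes closest to Kcnj8 were Castor1 (0.93) and Aplnr (0.92).

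Related genes were described in lists. Of 18 contractile partners, 1 was called lower at day 1 against steady state, 1 higher for day 4 against day 1, and 1 higher and 1 lower for day 7 against day 1, where 2.35%, 1.43% and 8.13% of all tested genes were called. The other 3 comparisons had 0 calls by edgeR, 0 to 3 genes at an unadjusted p under 0.05 and 0 calls by DESeq2. Itga8, an integrin subunit of smooth muscle and other mesenchyme, measured 21.7 to 42.0 CPM at steady state, 5.80 to 14.4 at day 1, 27.9 to 39.6 at day 4 and 38.5 to 47.3 at day 7. Its day 1 libraries were below the other 10. Itga8 fell at day 1 by 1.82 (SE 0.35, adjusted p = 0.0139), then rose to day 4 by 1.91 (SE 0.37, adjusted p = 0.0199) and to day 7 by 2.20 over day 1 (SE 0.37, adjusted p = 0.00579), opposite in sign to the values of Acta2 and Tagln in these 3 comparisons. The calls held in 18 of 22, 17 of 23 and 22 of 23 alternatives. Tpm2 fell from day 1 to day 7 by 1.39 (SE 0.35, adjusted p = 0.0304, called in 16 of 23 alternatives), from 156 to 259 CPM down to 74.9 to 82.5.

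Myl9, the regulatory light chain, measured 66.9 to 147 CPM over the 13 libraries and had adjusted p of 0.464 or more in every comparison. Des, the muscle intermediate filament, measured 189.9 to 267 CPM at steady state and 82.7 to 164 at day 4, with no overlap and a log2 fold change of -1.08 ± 0.36 (adjusted p = 0.26). Actg2 measured 113 CPM in PBS day 4 replicate 2 and 1.44 to 2.52 in the other steady-state libraries, the library in which Cnn1 also stood apart. Of the 7 contractile regulators 0 were called by edgeR in any comparison, with 0 to 1 at an unadjusted p under 0.05 and 0 to 1 calls by DESeq2: Srf, the serum response factor, measured 3.11 to 17.5 CPM and its partner Myocd 0.902 to 4.32 CPM.

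The 14 pericyte-associated genes had positive log2 fold changes in 14 of 14 at day 4 against steady state (median 0.60, all genes -0.13) and negative ones in 14 of 14 at day 7 against day 4 (median -0.67, all genes 0.11). Of these 0 were called by edgeR at day 4 against steady state (7 at an unadjusted p under 0.05, 2 by DESeq2) and 1 at day 7 against day 4, while libraries did not overlap for 7 and 11 of the 14. Of all tested genes, 14.7% and 26.2% did not overlap and 0.29% and 3.9% were called by edgeR in these 2 comparisons. For the unadjusted and DESeq2 counts the shares of all genes are not given. Without day 4 replicate 2 the first count was 13 of 14. The 9 TEC markers moved with this list: 7 of 9 were positive at day 4 against steady state (median 0.80, 0 called by edgeR, 3 at an unadjusted p under 0.05, 2 by DESeq2) and 9 of 9 negative at day 7 against day 4 (median -1.43, 3 called lower). Enpep, 1 of the 14 genes, encodes Ly51, which cortical TECs also carry. Of the 7 endothelial markers, 5 were positive at day 4 against steady state (median 0.29, 0 called by edgeR). At day 7 against day 4, 5 of 7 were negative (median -0.34, 0 called by edgeR, 3 with libraries that did not overlap). The part of TEC or endothelial RNA in these values was not tested. After adding the thymocyte score the counts were 10 of 14 positive (median 0.16) and 10 of 14 negative (median -0.11), neither with a call. Score and condition cannot be told apart in these 2 comparisons, so the part of thymocyte RNA is not shown by this. Vtn, vitronectin, is made by pericytes of many organs and measured 32.2 to 71.0 CPM at steady state, 26.2 to 47.6 at day 1, 95.4 to 146 at day 4 and 35.005 to 57.4 at day 7. Vtn rose from day 1 to day 4 by 1.72 (SE 0.33, adjusted p = 0.0193) and fell to day 7 by 1.39 (SE 0.33, adjusted p = 0.034), each called in 15 of 23 alternatives, and day 4 lay above all other libraries.

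Pdgfrb, the receptor through which platelet-derived growth factor recruits pericytes and which fibroblasts also carry, had another course. It measured 303 to 618 CPM at steady state, 1175 to 1780.3 at day 1, 558 to 667 at day 4 and 317 to 506 at day 7. All 3 day 1 libraries were above the other 10. Pdgfrb rose at day 1 by 1.68 (SE 0.28, adjusted p = 0.00547, called in 21 of 22 alternatives) and fell from day 1 to day 7 by 1.83 (SE 0.31, adjusted p = 0.00588, called in 22 of 23).

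Of 19 genes of Notch, platelet-derived growth factor, transforming growth factor and angiopoietin signalling around mural cells, 2 were called lower for day 7 against day 1 (8.13% of all genes called, a share near that of the list) and 0 by edgeR in the other 5 comparisons, where 0 to 5 had an unadjusted p under 0.05 and DESeq2 called 0 to 1. Heyl, a Notch target of mural cells, measured 24.1 to 76.7 CPM at steady state, 91.2 to 140.3 at day 1, 82.7 to 98.0 at day 4 and 30.5 to 44.0 at day 7. Heyl fell from day 1 to day 7 by 1.49 (SE 0.36, adjusted p = 0.0243, 16 of 23 alternatives). Jag1, a Notch ligand, fell by 1.17 (SE 0.32, adjusted p = 0.0442, 10 of 23 alternatives) in the same comparison. Pdgfb, the endothelial ligand of Pdgfrb, measured 4.13 to 12.1 CPM with adjusted p of 0.521 or more in every comparison.

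The paralogs bear on which family member was measured. Of 13 paralogs of the members, 12 passed the filter, of which 1 was called lower for day 7 against day 1, a share near the 8.13% of all genes, and 2 lower for day 7 against day 4 (3.9% of all genes). The other 4 comparisons had 0 calls by edgeR, 1 to 4 genes at an unadjusted p under 0.05 and 0 to 1 calls by DESeq2. A high day 1 was not particular to Acta2 and Tagln. Against steady state 7 paralogs had positive and 5 negative log2 fold changes at day 1. There 2 of the 12 did not overlap (15.8% of all genes). Actb measured 970 to 1634 CPM at steady state and 2164 to 2448 at day 1, and Myh9 227 to 364 and 426 to 579. The neuronal and pancreatic counterparts of the channel subunits were scarce, Kcnj11 at 0.0929 to 0.965 CPM and Abcc8 at 1.09 to 10.9 CPM, with adjusted p of 0.21 or more. Acta1, the skeletal muscle actin, measured 0 to 2.13 CPM, and no 75-base window of the Acta2 exons occurred in another gene. Among the regulators of G-protein signalling related to Rgs5, Rgs4 fell from day 4 to day 7 by 1.62 (SE 0.36, adjusted p = 0.0288, 16 of 23 alternatives) and Rgs16 by 1.57 (SE 0.38, adjusted p = 0.0387, 11 of 23 alternatives). Rgs16 also fell from day 1 to day 7 by 1.44 (SE 0.38, adjusted p = 0.0354, 13 of 23 alternatives). Rgs4 measured 205 to 220.4 CPM at day 4 and 44.2 to 93.7 at day 7.

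**Figure D4:**
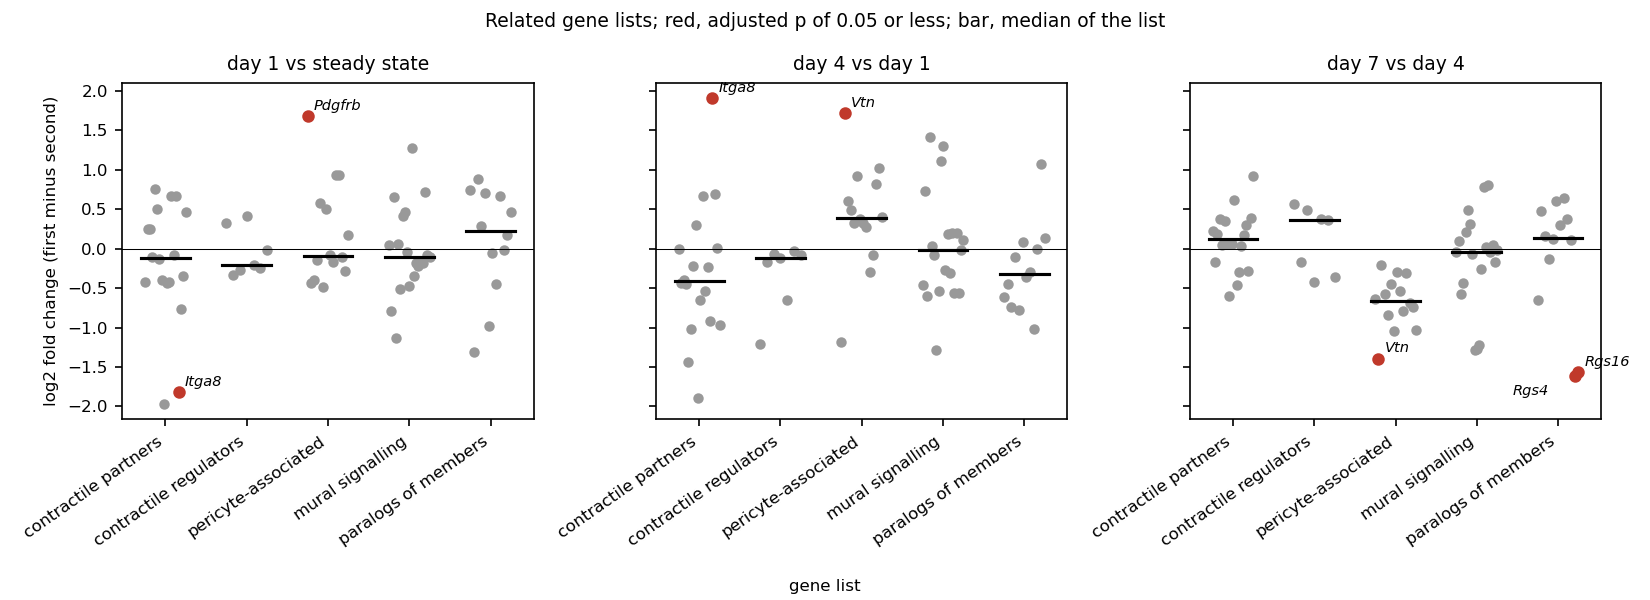
Log2 fold changes (y axis, first minus second condition) of the tested genes in 5 related lists (x axis) for 3 successive comparisons, each point 1 gene and each bar the median of its list. Named red points have an adjusted p of 0.05 or less: Itga8 and Pdgfrb in the first panel, Itga8 and Vtn in the second, and Vtn, Rgs4 and Rgs16 in the third, where all 14 pericyte-associated genes lie below 0.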

How the data were processed

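Bulk RNA-seq libraries of CD45- thymic cells were compared between steady state (4 libraries) and day 1, day 4 and day 7 of recovery from TBI (3 libraries each). Thymi were digested, depleted of CD45+ cells on magnetic columns and sorted. Per the labels and the study's methods, paired reads were trimmed by the authors (Trimmomatic 0.38), mapped by STAR 2.7.0e against GRCm38.p5 and counted with featureCounts 1.6.3 at default settings on GENCODE M12 genes, settings that ignore strand and drop reads assigned to more than 1 gene or mapped more than once. The deposited values are raw counts per gene. Symbols were matched for 53274 of 53379 gene identifiers through GENCODE M21. Totals were 15721866 to 52056896 counts per library.

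Genes were filtered with filterByExpr by condition (19984 kept), scaled by TMM and fitted over all 13 libraries in edgeR 4.0.16 (quasi-likelihood F-test, R 4.3.3), with Benjamini-Hochberg adjustment over all genes kept and a threshold of 0.05, for 6 comparisons. The study's methods state no test between conditions for these libraries. The SE was taken from the fold change and its F statistic. CPM used TMM-scaled library sizes. The test was tried on simulated counts. Alternatives were RLE scaling, DESeq2 1.42.0, no filter, at least 10 counts in every library, only the 2 conditions compared, a replicate block, the tag family in the column names, a thymocyte score, and each library left out. Leaving out 2 steady-state libraries and a block over the libraries after TBI alone were added after seeing the data. The members and lists were chosen with earlier results of these data known. All 10 members are named, and from each related list the genes called, up to 3 per comparison by adjusted p, with 11 further genes whatever their result. Pcsk7 and Gm48529 were added because they overlap Tagln, and Actb and Myh9 for their levels at day 1. Promoter sequences are RefSeq windows on GRCm38.p6 (8 of 10 members matched), and figures were drawn with matplotlib 3.10.9. For each member the 3 non-members with the highest Pearson correlation over the 13 libraries are named, except 1 that is not reported here.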

Additional observations from a re-analysis of the deposited data

Results flagged for a closer look

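In the steady-state group of 4, Cnn1 measured 33.3 CPM in PBS day 4 replicate 2 against 3.64 to 8.42 CPM in the other 3 libraries. Its gap to the nearest library was 0.839 of the range, above the 95% critical value of Dixon's test for 4 samples. Actg2 measured 113 CPM in the same library against 1.44 to 2.52 CPM, a ratio of 0.990. Among 27 named genes examined, about 1.35 such values arise by chance, and 2 were found, both in 1 library.

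In the direct test between 2 days after TBI, 15 values of the named genes differed. They repeat calls given above, and several of the genes were named because they were called, so the number adds no support. Of all tested genes 1.43% were called for day 4 against day 1, 8.13% for day 7 against day 1 and 3.9% for day 7 against day 4. Between day 1 and day 4 the values were Tagln (log2 fold change -1.93), Abcc9 (1.18), Itga8 (1.91) and Vtn (1.72). Between day 1 and day 7 they were Tagln (-1.67), Pdgfrb (-1.83), Jag1 (-1.17), Itga8 (2.20), Tpm2 (-1.39), Heyl (-1.49) and Rgs16 (-1.44). Between day 4 and day 7 they were Kcnj8 (-1.13), Vtn (-1.39), Rgs4 (-1.62) and Rgs16 (-1.57). Adjusted p ran from 0.00579 to 0.0442 (edgeR's quasi-likelihood test, Benjamini-Hochberg).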

How the results depend on the processing

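The number of mural genes called and their median were recomputed under 23 alternatives. No member had under 57 reads in a library, and whether depth or the number of libraries limited the calls was not tested. RLE scaling gave 1 call at day 4 against steady state, as did no filter on low counts. DESeq2 gave 2 calls at day 1 and 2 at day 4 against steady state, 2 for day 7 against day 1 and 4 for day 7 against day 4. How many of all genes each alternative called is not given here. Fitting only the conditions compared gave 2 for day 7 against day 1. The tag family as a covariate gave 2 at day 1 against steady state and 2 for day 7 against day 1. With the thymocyte score, which cannot be told apart from day here, 0 were called in each comparison between days, and the median for day 7 against day 4 was -0.23. Without the PBS day 1 and PBS day 4 libraries, chosen after seeing the data, the calls were 3, 1, 4 and 2 for day 1 and day 4 against steady state and day 4 and day 7 against day 1, with medians of 0.64 and 0.10 for day 1 and day 7 against steady state.

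Leaving out 1 library at a time gave 0 to 3 calls at day 1, 0 to 1 at day 4 and 0 to 0 at day 7 against steady state, 0 to 4 for day 4 against day 1, and 0 to 2 for day 7 against day 1 and for day 7 against day 4. The medians ran from 0.05 to 0.41, 0.17 to 0.63, -0.52 to -0.12, -0.01 to 0.14, -0.67 to -0.35 and -0.66 to -0.43 in the same order. The replicate block gave 1 call for day 4 against day 1 and 0 for day 7 against day 1 and day 7 against day 4, and a block over the libraries after TBI alone, added after seeing the data, gave 0, 0 and 0. Adjusted p under the first and second block was 0.112 and 0.131 for Tagln (day 4 against day 1), 0.0649 and 0.0607 for Tagln (day 7 against day 1) and 0.117 and 0.112 for Kcnj8 (day 7 against day 4), and 0.119 under the second for Abcc9 (day 4 against day 1), which the first left called. A pairing by number was not evident: deviations of same-numbered libraries had mean correlations of -0.67, -0.14 and 0.05, and 0 of 9 libraries correlated best with their own number. Deviations from a mean of 3 libraries depend on each other, so these values cannot settle whether the numbers mark a shared batch.

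Single values that changed sign were not called in either fit. Kcnj8 for day 7 against day 1 became -0.0034 under RLE, -0.0035 by DESeq2, -0.0063 with at least 10 counts in every library and -0.27 with the tag family, and ran from -0.19 to -0.0089 over 6 of the 13 left-out libraries, at -0.014 and -0.013 without PBS day 1 replicate 2 and PBS day 7 replicate 1, and -0.19 without day 7 replicate 1. The tag family turned Notch3 at day 7 against steady state to 0.25. The thymocyte score turned Kcnj8 at day 1 against steady state to -0.15, Myh11 at day 4 to 0.67 and Abcc9 at day 7 to 0.079, Notch3 for day 4 against day 1 to 0.0085, and Myh11 to -0.74 and -1.78 for day 7 against day 1 and day 4. Without PBS day 4 replicate 2, Cnn1 at day 1 was 0.40 and Tagln at day 7 0.051 against steady state. Without day 7 replicate 1, Kcnj8 at day 7 against steady state was -0.056 and Abcc9 kept its sign at -0.16, and without replicate 2 Abcc9 was 0.070 there, Myh11 -0.019 and -0.30 against day 1 and day 4, and Acta2 -0.043 against day 4 (0.38, with no change of sign, without day 4 replicate 3). Without both PBS libraries, against steady state, Cnn1 at day 1 was 0.81, Acta2 and Tagln at day 4 were 0.14 and 0.19, and at day 7 Acta2 was 0.31, Tagln 0.46, Cnn1 0.20 and Abcc9 0.0083. The cause of these changes was not tested.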
